A study of Rattus norvegicus with 4 samples.

Results

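Dividing cells of the adult female rat pituitary gland were 226 of 20381 cell barcodes that passed the quality filters (a minimum of 1000 unique molecular identifiers, UMIs, with 500 or more genes and no more than 20% of UMIs from mitochondrial genes). A barcode was taken as a dividing cell when at least 4 of 8 genes of the late cell cycle had 1 or more UMIs. These genes were Mki67, Top2a, Cdk1, Ube2c, Cenpf, Prc1, Nusap1 and Birc5, and their own values are therefore described without a test. The cells came from female Sprague Dawley rats of 75 days, taken at random stages of the estrous cycle and otherwise untreated. In 1 preparation 30 pituitaries were dissected, and the pooled anterior and posterior lobes gave 1 library each. A second pool of 30 undivided glands was dispersed into 1 suspension that was loaded on 2 lanes. Dispersion was by trypsin and EDTA, and libraries were made with the 10x Genomics Chromium 3′ kit, which counts the 3′ ends of messenger RNA. The lanes were technical repeats of 1 suspension, so that there were 2 pools of glands in all. The fit over 3 classes had 12 sums and 5 residual degrees of freedom, and its p-values measure the spread of the change over classes and pools together, most of it between classes of the same pool.

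A cell copies its DNA in S phase, which needs the MCM helicase, the replication fork proteins and a supply of nucleotides. It then separates the copies in mitosis with cyclin-dependent kinase 1, condensin, the kinetochore, spindle motors and the anaphase promoting complex. The genes of both phases are kept off in resting cells by the DREAM complex and by retinoblastoma family proteins, which act through E2F sites and through the cell cycle homology region (CHR) of their promoters. In the adult pituitary, hormone cells and the folliculostellate cells, which express Sox2 and S100b and include the stem cells of the gland, are known to divide at a low rate. The lactotroph, the cell of prolactin, is the hormone cell best known for division, and estrogen is its classical stimulus.

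The 8 genes that chose the cells include chromosomal proteins (Mki67, the Ki-67 antigen, and Top2a, the enzyme that untangles sister chromatids), the mitotic kinase Cdk1 and a ubiquitin-conjugating enzyme of the anaphase promoting complex (Ube2c). Cenpf is a kinetochore protein, Prc1 and Nusap1 bundle spindle microtubules, and Birc5 (survivin) is a subunit of the chromosomal passenger complex. RefSeq promoters of the GRCr8 assembly were available for 7 of the 8, Ube2c being the one without an entry, and were searched from 250 bases before to 50 bases after the start. All 7 held the CHR word TTTGAA or its reverse complement TTCAAA, which 18.3% of the 33469 promoters in the table held. The CCAAT box (CCAAT or ATTGG) was also in all 7, against 37.5% of all promoters, and 7.41% of all promoters held both words. Neither of the searched E2F words, TTTGGCGC and TTTCCCGC with their reverse complements, was in any of the 7, against 1.45% of all promoters. A match of such short words is a description of the letters and no evidence of a site. The 130 bases just before the start are shown for 4 of these genes, 5′ to 3′ on the gene's strand, because they carry the words that the chosen genes share; capitals mark CHR and CCAAT words.

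Mki67, chr1:199952594-199952723, minus strand: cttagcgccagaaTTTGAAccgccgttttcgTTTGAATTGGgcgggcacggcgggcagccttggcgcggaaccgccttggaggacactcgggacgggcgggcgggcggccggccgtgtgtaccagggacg
Top2a, chr10:84473094-84473223, minus strand: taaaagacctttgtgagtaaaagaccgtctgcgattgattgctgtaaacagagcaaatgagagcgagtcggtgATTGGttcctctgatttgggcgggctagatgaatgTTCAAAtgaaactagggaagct
Cdk1, chr20:19265163-19265292, plus strand: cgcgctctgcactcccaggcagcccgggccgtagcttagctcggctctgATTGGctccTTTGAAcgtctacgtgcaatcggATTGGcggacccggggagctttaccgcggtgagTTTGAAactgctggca
Prc1, chr1:143659351-143659480, plus strand: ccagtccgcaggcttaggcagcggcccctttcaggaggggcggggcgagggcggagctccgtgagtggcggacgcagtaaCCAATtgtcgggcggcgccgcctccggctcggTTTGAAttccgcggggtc

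The CHR word nearest to the start lay 22 bases before it in Top2a, 16 in Cdk1 and 18 in Prc1. In Mki67 it lay 99 bases before the start and overlapped a CCAAT word. Genes of the MCM helicase and of its loading, activation and control (the replication licensing list below) were of another kind. Of 13 such promoters in the table, 8 (61.5%) held an E2F word and 2 (15.4%) a CHR word, whereas among 16 promoters of mitotic cyclins and kinases 0 held an E2F word and 10 (62.5%) a CHR word. Mcm5, a subunit of the MCM helicase, and Gins1, a subunit of the GINS complex that activates it, are shown as examples, with E2F and CCAAT words in capitals. Their E2F words ended the printed stretch in Mcm5 and lay 21 bases before the start in Gins1.

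Mcm5, chr19:13488683-13488812, plus strand: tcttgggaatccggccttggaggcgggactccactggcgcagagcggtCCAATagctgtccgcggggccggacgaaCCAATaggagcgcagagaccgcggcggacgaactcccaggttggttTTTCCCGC
Gins1, chr3:160184790-160184919, plus strand: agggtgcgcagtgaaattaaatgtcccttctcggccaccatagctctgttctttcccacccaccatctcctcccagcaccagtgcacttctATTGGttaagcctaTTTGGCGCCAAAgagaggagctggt

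The number of the 8 genes detected in a barcode had 2 separate modes. No rule gene was detected in 18707 barcodes and 1 was detected in 1343, whereas all 8 were detected in 123, against 15, 34 and 31 barcodes with 5, 6 or 7 of them. Just outside the rule, 22 barcodes had 3 of the genes, with a median of 4.5 UMIs summed over the 8 genes. Just inside it, 23 had 4, with a median of 8 UMIs. Cells with all 8 genes had a median of 76 such UMIs (range 11 to 305). Top2a and Ube2c were the most restricted, with 97.5% and 96.2% of all their UMIs in the 226 cells, while Mki67 had 72.0%. Top2a was detected in 189 of 226 dividing cells (83.6%), against 0.248% of other cells. Mki67 was detected in 211 (93.4%), against 2.70% of other cells. The 5 genes that served as markers of these cells (Top2a, Ube2c, Cdk1, Cenpf and Prc1) were each detected in 82.3% to 91.2% of them and in at most 1.2% of other cells, as the rule requires.

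**Figure D1:**
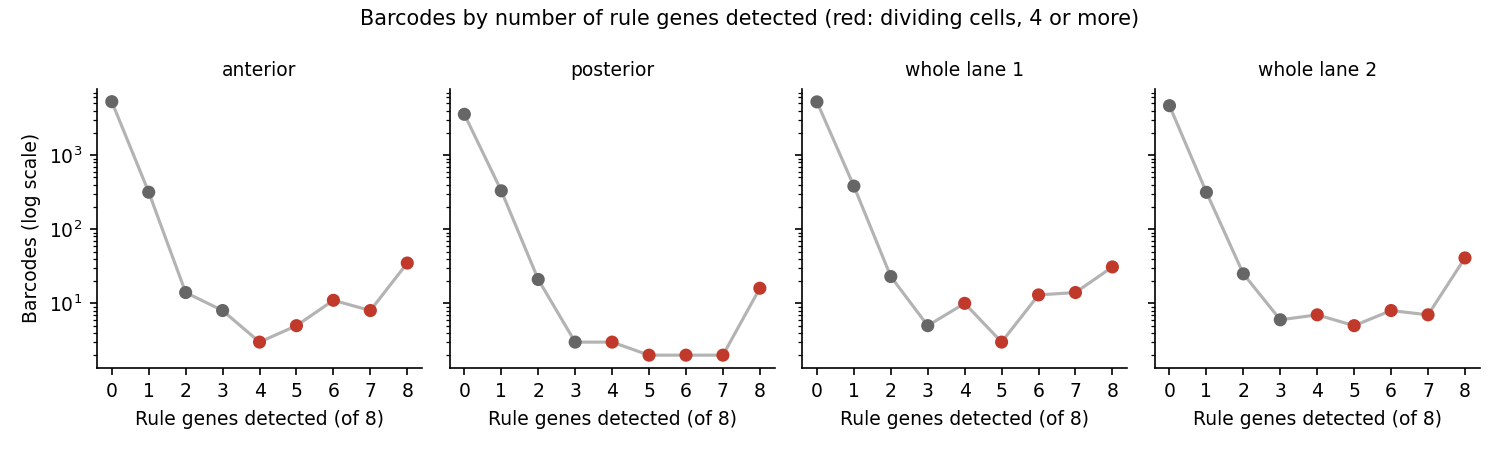
Number of barcodes (log scale) against the number of the 8 rule genes detected, 1 panel per library; red points are the dividing cells. In each library all 8 genes was the most frequent count among the red points (35, 16, 31 and 41 cells), and few barcodes had 2 to 5 genes.

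Dividing cells made up 62 of 5666 barcodes of the anterior library (1.09%, exact 95% binomial interval 0.840 to 1.40) and 25 of 3936 of the posterior library (0.635%, 0.411 to 0.936). They made up 71 of 5714 (1.24%, 0.972 to 1.56) and 68 of 5065 (1.34%, 1.04 to 1.70) of the 2 lanes of undivided glands. These intervals cover counting error only, and with 1 library per lobe no test between lobes was possible. The posterior library was the lowest, and its interval overlapped that of the anterior library. Dividing cells held about double the UMIs of other cells, with medians of 18614, 24083, 21072 and 17822 UMIs in the anterior, posterior and 2 whole-gland libraries, against 10348.5, 10612, 9676 and 9712 UMIs in other cells. After each barcode was thinned to 5000 UMIs, which left out 3776 shallower ones, 0.786%, 0.651%, 1.06% and 1.13% of barcodes met the rule in the same order of libraries. The anterior and posterior shares were then close to each other. Libraries held 50873998 to 68627841 UMIs in kept barcodes. A doublet score (Scrublet) above 0.25 was found in 3.1% of dividing cells and 2.96% of other cells. Of 35 barcode sequences that were kept in more than 1 library, 0 belonged to a dividing cell.

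Dividing cells were found in 10 of 14 classes of pituitary cell, to which each was assigned by correlation with class means computed without hormone and cell cycle genes. Classes carry the ending "-like" because they were rebuilt from marker genes. The largest number, 90 cells (39.8%), was lactotroph-like, 42 (18.6%) were folliculostellate-like and 36 (15.9%) somatotroph-like, the class of growth hormone cells. A further 20 fell in clusters 15 and 17, which had Kdr, the receptor of vascular endothelial growth factor. Those clusters are called by number because cluster 15 was led by hemoglobin genes (Hbb, Hba-a2) as well as by Aplnr, Tek and Lyve1. The rest were 18 macrophage-like, 7 melanotroph-like, 4 corticotroph-like, 4 lymphocyte-like, 3 mural-like and 2 gonadotroph-like cells. Both gonadotroph-like cells and 12 of the 36 somatotroph-like cells had a margin under 0.02 in correlation to the next class, and both gonadotroph-like cells held over 28% of their UMIs in Prl.

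Shares of each class differed between libraries, so that no order of the highest classes held throughout. Clusters 15 and 17 had 8 of 319 dividing cells in dissected glands (2.51%, 1.09 to 4.88) and 12 of 257 in whole glands (4.67%, 2.44 to 8.01). Macrophage-like cells had 6 of 449 (1.34%, 0.492 to 2.89) in dissected glands and 12 of 388 (3.09%, 1.61 to 5.34) in whole glands. By library, clusters 15 and 17 had 6.58% (anterior), 1.23% (posterior), 5.84% (lane 1) and 2.91% (lane 2), and macrophage-like cells 1.18%, 1.43%, 2.07% and 4.10%, so that macrophage-like cells were higher in the posterior library and in lane 2. Folliculostellate-like cells were dividing at 15 of 884 (1.70%, 0.953 to 2.78) and 26 of 1737 (1.5%, 0.980 to 2.19) in the same order. Lactotroph-like cells were dividing at 30 of 2348 (1.28%, 0.864 to 1.82) and 53 of 3703 (1.43%, 1.07 to 1.87), and the intervals of these 2 classes overlapped. At no more than 10% mitochondrial UMIs, folliculostellate-like cells had 3.31% and 2.52%, against 1.25% and 1.54% of lactotroph-like cells. Somatotroph-like cells lay lower, at 6 of 1529 (0.392%, 0.144 to 0.852) and 28 of 3102 (0.903%, 0.601 to 1.3). No dividing cell was found among 1128 pituicyte-like cells of dissected glands, which allows a share of up to 0.266%, or among 99 of whole glands, which allows up to 3.03%; pituicytes are the glial cells of the posterior lobe. None was found among 54 and 89 thyrotroph-like cells, which allows up to 5.56% and 3.37%. Hormone classes of the anterior lobe and folliculostellate-like cells of dissected glands were taken from the anterior library alone.

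Depth differed between classes and moved some of these shares. Thinned to 5000 UMIs per cell, macrophage-like cells had 2.01% and 6.15% dividing in dissected and whole glands, and clusters 15 and 17 had 3.53% and 2.91%. Lactotroph-like cells had 0.852% and 1.11%, folliculostellate-like cells 1.34% and 1.36%, and somatotroph-like cells 0.306% and 0.852%. Somatotroph-like cells remained the lowest of these 5 classes in both preparations. The 2 lanes of 1 suspension also differed, with 9 of 951 folliculostellate-like cells dividing in lane 1 (0.946%) and 17 of 786 in lane 2 (2.16%). In lactotroph-like cells the order was the opposite, with 34 of 1959 in lane 1 (1.74%) and 19 of 1744 in lane 2 (1.09%). In these 2 classes the lanes thus differed by more than the preparations.

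**Figure D2:**
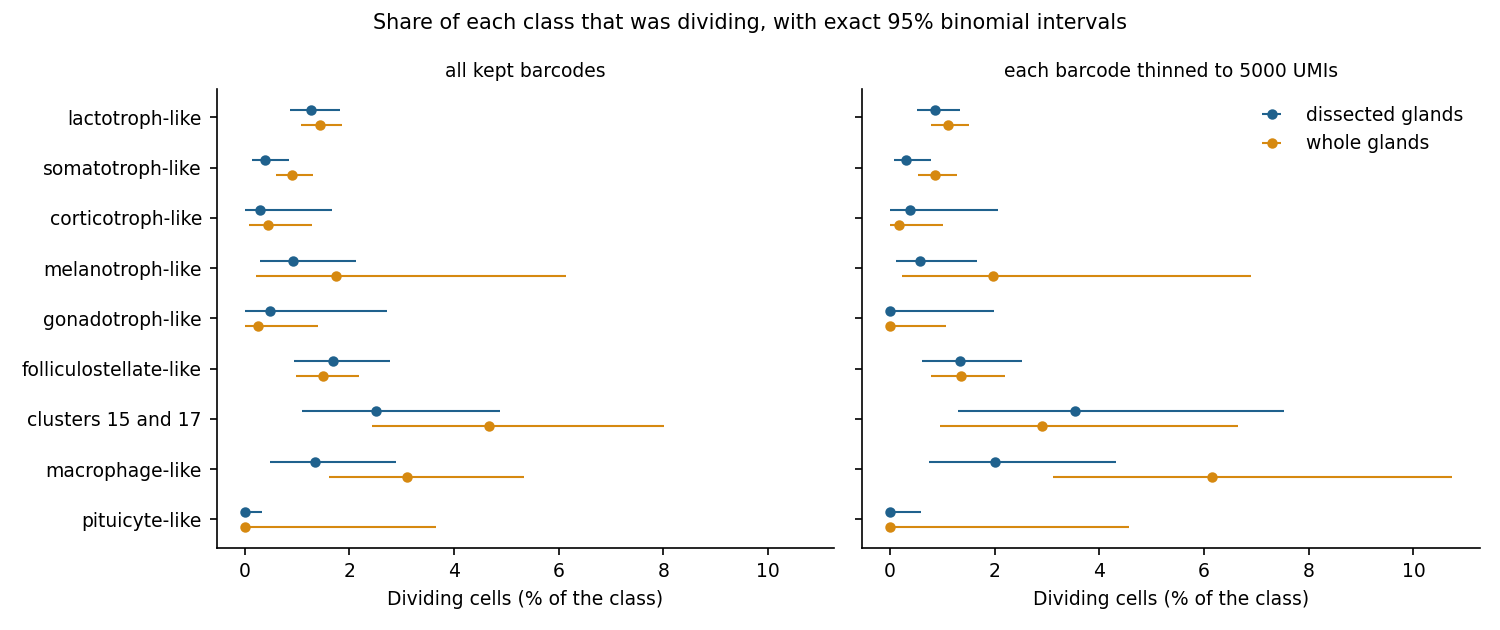
Share of each class that was dividing (percent of its cells) in dissected and whole glands, for all kept barcodes on the left and after thinning to 5000 UMIs on the right; bars are exact 95% binomial intervals for counting error. Pituicyte-like cells lie at 0 in both panels, and somatotroph-like cells lie left of lactotroph-like and folliculostellate-like cells.

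Dividing cells were found in every sub-cluster of these classes, in some classes in other proportions than the rest of the class. Cluster 11, folliculostellate-like cells led by Krt17, a keratin, Edn2, Cd24 and Msx1, had 23 of 653 cells dividing (3.52%, 2.25 to 5.24). The other folliculostellate-like clusters had 13 of 1508 (0.862%) and 6 of 791 (0.759%). Cluster 11 therefore held 54.8% of dividing and 21.6% of other folliculostellate-like cells. Other cells had a median of 10625 UMIs in cluster 11, against 6473 and 4961 UMIs in clusters 4 and 6. Thinned to 5000 UMIs the shares were 2.42% in cluster 11, against 0.749% and 1.02% in the other 2 clusters. The dividing cells of cluster 11 numbered 11 in the anterior library, 1 in the posterior library, 1 in lane 1 and 10 in lane 2. In lactotroph-like cells, cluster 1 had 46 of 2628 dividing (1.75%), cluster 2 had 22 of 2554 (0.861%) and cluster 7 had 17 of 933 (1.82%). Cluster 14, marked by the peptide gene Cartpt, had 5 of 423 (1.18%). Thinned to 5000 UMIs, clusters 1, 2, 7 and 14 had 1.36%, 0.724%, 1.11% and 0.796%, with overlapping intervals. Cluster 15 had 17 of 333 dividing (5.11%) and cluster 17 had 3 of 243 (1.23%), or 3.95% and 1.75% when thinned, with overlapping intervals. In somatotroph-like cells, cluster 0 held 55.6% of dividing cells (38.1 to 72.1), against 62.1% of other cells. In macrophage-like cells, cluster 12 held 55.6% of dividing cells (30.8 to 78.5), against 64.1% of other cells. Clusters were built from other cells without cell cycle genes, and dividing cells were placed in them by correlation; the shares are given as descriptions with no test.

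Very large libraries were more frequent among dividing folliculostellate-like cells than in the rest of the class. Over 60000 UMIs were found in 10 of 42 dividing cells (23.8%, 12.1 to 39.5), against 35 of 2910 other cells of the class (1.2%). Of the 10 dividing cells 9 were in cluster 11, as were 29 of the 35 other cells of that size. The rule asks for 1 UMI per gene at any depth, which deep barcodes meet more easily, and the part of this was not tested. Among lactotroph-like cells 0 of 90 dividing and 5 of 6448 other cells were that large.

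Hormone RNA was read as a share of UMIs in dividing cells and in other cells. Prl, the prolactin gene, took at least 10% of UMIs in 102 of the 226 cells (45.1%, 38.5 to 51.9), against 33.5% of other cells. Gh1, growth hormone, did so in 36 (15.9%, 11.4 to 21.4), against 24.2% of other cells, and Pomc, the precursor of ACTH and melanocyte-stimulating hormone, in 11 (4.87%, 2.45 to 8.54), against 7.54%. These sets hardly overlapped, since 101 cells passed for Prl alone, 34 for Gh1 alone and 10 for Pomc alone, and only 1 for both Prl and Gh1 and 1 for Pomc with another hormone. The remaining 79 cells passed for none of the 3. Overlaps and cells passing for none were not counted among other cells, so neither is shown to be a trait of dividing cells. Of the 226 cells, 11, 7 and 5 lay between 5% and 15% for Prl, Gh1 and Pomc. The 5 for Pomc had 10.6% to 14.9% and were among the 11 that passed, so that the Pomc count depends on the line.

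By library, 35 of 62 anterior, 7 of 25 posterior, 38 of 71 lane 1 and 22 of 68 lane 2 dividing cells passed for Prl. These were 56.5%, 28%, 53.5% and 32.4%, against 43.3%, 13.4%, 35.4% and 35.9% of other cells, so that lane 2 went the other way. The median Prl share of dividing cells was 24.8% in the anterior library, 0.156% in the posterior library, 22.5% in lane 1 and 0.541% in lane 2. In other cells these medians were 1.04%, 0.229%, 0.761% and 0.725%. The 2 lanes of the same suspension therefore lay on different sides of the 10% line, with a range from 0.138% to 55.8% in lane 1 and from 0.188% to 44.6% in lane 2. Gh1 passed in 5, 2, 12 and 17 dividing cells of the anterior, posterior and 2 whole-gland libraries, and Pomc in 1, 5, 2 and 3.

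Dividing hormone cells held hormone RNA and mitotic RNA together. The 90 lactotroph-like dividing cells had 23.9% to 55.8% of UMIs in Prl (median 37.0%). Somatotroph-like dividing cells had a median of 26.4% in Gh1 (6.17% to 39.7%), and 35 of the 36 had at least 10%. Melanotroph-like dividing cells, of the class that makes up the intermediate lobe, had a median of 30.6% in Pomc (13.8% to 59.4%). The 4 corticotroph-like cells had 10.6% to 35.5% in Pomc. Folliculostellate-like dividing cells had a median of 0.479% in Prl, but the range reached 22.5%, and 5 of the 42 had at least 10%. Droplets can carry RNA of broken cells, and in a share of UMIs less hormone RNA and more of all other RNA cannot be told apart.

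**Figure D3:**
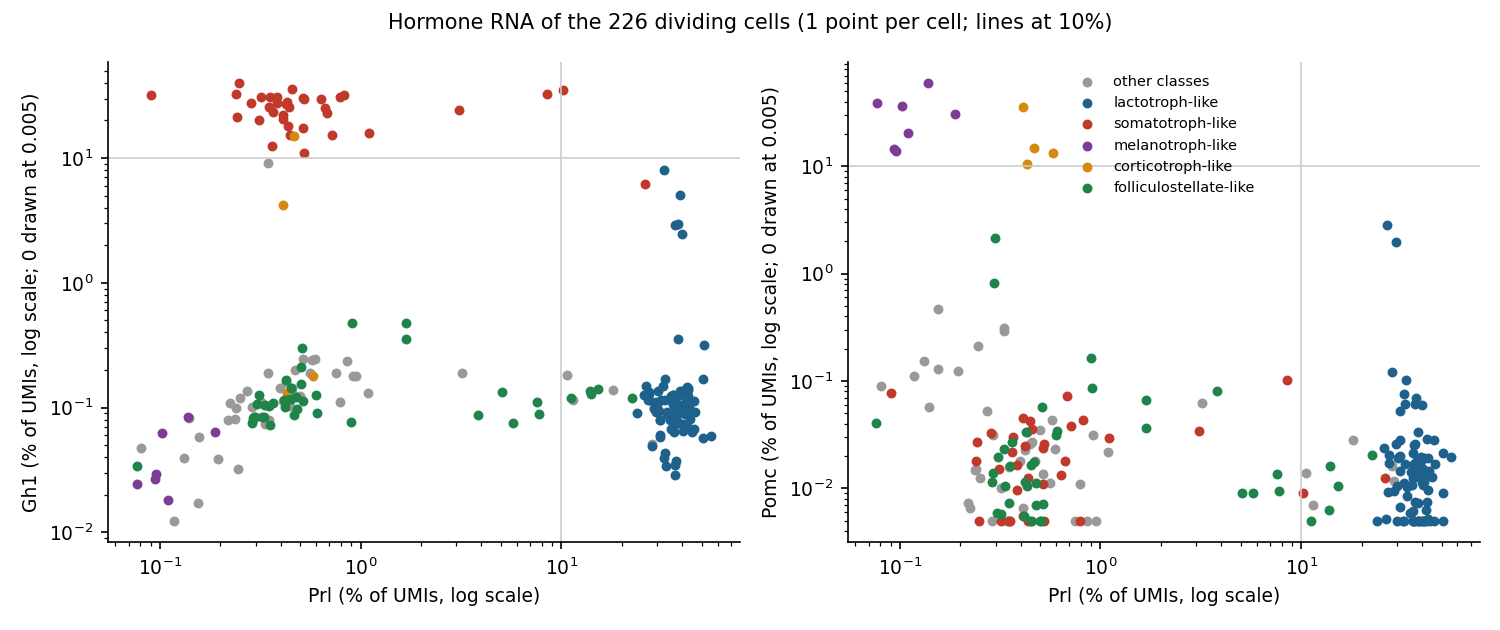
Share of UMIs in Gh1 (left) and Pomc (right) against the share in Prl in each of the 226 dividing cells, both axes log scale, coloured by class; grey lines mark 10%. Lactotroph-like, somatotroph-like and Pomc cells form separate groups, and folliculostellate-like cells lie mostly near 0.479% Prl.

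Markers of non-hormone cells were detected mostly, but not only, in their own classes. S100b, a calcium-binding protein of folliculostellate cells, was detected in 51 of the 226 dividing cells (22.6%) and in 22.6% of other cells. By library it was in 15 of 62 anterior, 7 of 25 posterior, 10 of 71 lane 1 and 19 of 68 lane 2 dividing cells. Among folliculostellate-like cells, 35 of 42 dividing cells (83.3%, 68.6 to 93.0) and 92.1% of other cells had S100b. At 5000 UMIs each, these shares were 62.5% (45.8 to 77.3) and 90.1% (88.7 to 91.4), and the intervals did not overlap. Lactotroph-like cells, which should lack S100b, had it in 6.67% of dividing and 3.23% of other cells, at medians of 26384 and 16556 UMIs. Melanotroph-like cells had it in 4 of 7 dividing cells and 35.2% of other cells, and 16 of the 51 dividing cells with S100b were not folliculostellate-like.

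Kdr was detected in 24 dividing cells (10.6%, 6.92 to 15.4), against 3.40% of other cells. They were 7 anterior, 3 posterior, 9 lane 1 and 5 lane 2 cells, and included all 20 dividing cells of clusters 15 and 17. None of the 90 dividing lactotroph-like cells had Kdr, against 0.372% of other lactotroph-like cells. Tyrobp, a signalling adaptor of myeloid cells, was detected in 30 dividing cells (13.3%, 9.14 to 18.4), against 5.70% of other cells. They were 7 anterior, 5 posterior, 7 lane 1 and 11 lane 2 cells. They included all 18 macrophage-like ones and 12 of other classes, 5 of them folliculostellate-like (11.9%, against 2.37% of other folliculostellate-like cells). These 5 cells had at most 2 Tyrobp UMIs each. Median depths were 20393.5 UMIs in dividing and 6259 UMIs in other folliculostellate-like cells. Thinned to 5000 UMIs, the shares were 5% (0.611 to 16.9) and 1.81% (1.27 to 2.48). Summed over cells of this class, Tyrobp was lower in dividing ones, at 5.60 and 2.66 CPM, against 14.9 and 16.1 CPM. These are UMIs scaled to a common library total, in dissected (both lobes) and whole glands. In lactotroph-like cells Tyrobp was in 1 of 90 dividing cells (1.11%) and 1.26% of other cells. At 5000 UMIs each, Kdr was in 10.5% of dividing and 2.34% of other cells, and Tyrobp in 10.96% and 3.73%.

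The phase of the cycle was read from genes outside the rule. Of the 226 cells, 122 (54.0%) had at least 3 of Ccnb1 (cyclin B1), Plk1 (polo-like kinase), Cdc20 (activator of the anaphase promoting complex) and Aurka (Aurora A kinase). At least 3 of the S phase genes Mcm5, Mcm6, Pcna (the sliding clamp of the fork) and Tyms (thymidylate synthase) were found in 119. Both sets were found in 59 cells and neither in 44. Cdc20 was in 75.2% of dividing cells, against 1.27% of other cells, and Ccnb1 in 62.4%, against 0.863%. Pcna was the least selective, in 83.6% of dividing and 41.9% of other cells. The share with the mitotic set was 57.8% of lactotroph-like, 57.1% of folliculostellate-like and 66.7% of somatotroph-like dividing cells, but 25% of the 20 cells of clusters 15 and 17. Since the rule itself asks for late genes and droplets share free RNA, these counts describe the chosen cells and are no estimate of time in each phase.

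Dividing cells were next compared with other cells of the same class and preparation, in UMIs summed over cells. Classes with at least 8 dividing cells in both preparations entered 1 fit. These were lactotroph-like cells (30 and 53 dividing cells in dissected and whole glands), folliculostellate-like cells (15 and 26) and clusters 15 and 17 (8 and 12). Calls required a change of at least 2-fold and an adjusted p (Benjamini-Hochberg) under 0.05 in edgeR's quasi-likelihood test, and "rose" and "fell" are used of called genes. Of 9550 tested genes other than the rule genes, 371 (3.88%) rose and 99 (1.04%) fell in dividing cells. The median log2 fold change of all tested genes was -0.10. Among the genes that rose, 122 were members of 12 lists of cell cycle genes and 248 of no list. These lists accompany the rule genes, so their counts are descriptions. Many members were near 0 CPM in other cells and passed the filter on low counts through the dividing sums alone, so that they had to differ, and the tallies of tested members support nothing by themselves. With cells chosen on one random portion of their UMIs and tested on the rest, 275 genes rose and 96 fell. Without the anterior library, where only whole-gland sums of 1 pool were fitted, 220 rose and 20 fell, and without the posterior library, which left too few dividing cells to keep clusters 15 and 17, 553 rose and 173 fell.

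Genes of DNA replication rose among the members abundant enough to test. All 12 tested of 17 licensing genes rose (median log2 fold change 2.98), as did 16 of 16 tested fork genes (1.86) and 6 of 6 of nucleotide supply (2.04). Mcm6, a helicase subunit, had 38.2 and 50.6 CPM (UMIs scaled to a common library total) in dividing folliculostellate-like cells of dissected and whole glands, against 7.02 and 12.2 in other cells. In lactotroph-like cells it had 134 and 98.5 CPM in dividing cells, against 5.87 and 4.75. In clusters 15 and 17 it had 60.2 and 38.7 CPM, against 17.2 and 17.3. No dividing value overlapped those of other cells in any class. Pcna rose by 1.60 on the log2 scale (SE 0.29, adjusted p = 0.0033).

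Genes of the mitotic kinases, kinetochore and spindle rose furthest. All 15 tested mitotic cyclins and kinases rose (median 6.04), with 19 of 20 kinetochore genes (5.41), 20 of 20 spindle and cytokinesis genes (5.96) and 10 of 10 of condensin and cohesin (3.43). Of 9 chromatin proteins 8 rose (1.90). Cdca3, a mitotic entry factor, had the largest change outside the rule genes among genes at 50 CPM or more that moved 1 way in every class and preparation, 9.75 on the log2 scale. It had 106 and 154 CPM in dividing folliculostellate-like cells, against 0 and 0.132 CPM in other cells, and 283 and 347 CPM in lactotroph-like cells, against 0.329 and 0.228 CPM. Ccna2 (cyclin A2), the kinase Pbk, the spindle motor Kif20a and Cdkn3, a phosphatase of cyclin-dependent kinases, followed at 9.02, 8.84, 8.11 and 8.09. The next were the kinetochore genes Spc25 (7.92) and Sgo2 (7.71), the histone chaperone Asf1b (7.89), the cytokinesis factor Ect2 (7.86) and the spindle assembly factor Tpx2 (7.61). Zwint, of the kinetochore list, was the member that did not pass.

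Pttg1, securin, the inhibitor of sister chromatid separation first found in rat pituitary tumors, rose by 6.08 (SE 0.62). It had 276 and 436 CPM in dividing lactotroph-like cells, against 1.15 and 0.553 CPM. It had 85.5 and 146 CPM in dividing folliculostellate-like cells, against 3.27 and 6.42 CPM. In clusters 15 and 17 it had 196 and 163 CPM, against 3.13 and 7.37. Stmn1, a microtubule destabilizer, rose by 2.81 (SE 0.12, adjusted p = 2.4e-09). Its 6 dividing sums lay between 963 and 2286 CPM and the 6 sums of other cells between 150.4 and 262 CPM. Both genes were thus separated between states in every class and preparation.

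Lists of anaphase genes, cell cycle transcription factors and G1 regulators had smaller median changes than the lists above. Of 12 anaphase and ubiquitin genes 4 rose (median 0.43), namely Cdc20, Fbxo5, Fzr1 and Ube2s, while the 8 tested subunits of the complex itself did not pass. Of 10 tested cell cycle transcription factors 5 rose (1.08): E2f7 and E2f8, the repressor E2Fs, E2f2, the retinoblastoma relative Rbl1 and Lin54, a DNA-binding subunit of DREAM. Rb1 itself had a log2 fold change of 0.02 and did not pass. Of 11 tested G1 regulators 3 rose (0.24), which were Ccne2 (cyclin E2), Cdk2 and the kinase inhibitor Cdkn2c. Ccnd1 (cyclin D1, 0.20), Cdk4 (0.24) and the inhibitor Cdkn1b (p27, 0.20) did not pass. Of 5 tested repair genes 4 rose (median 3.51), among them Brca1.

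Cdkn2c, p18, an inhibitor of Cdk4 and Cdk6 whose loss in mice gives pituitary tumors, rose by 1.95 (SE 0.25, adjusted p = 0.00014). It had 214 and 189 CPM in dividing lactotroph-like cells, against 29.8 and 25.8 CPM. It had 193 and 260 CPM in dividing folliculostellate-like cells, against 89.7 and 93.3 CPM. In clusters 15 and 17 it had 241 and 101 CPM, against 21.9 and 29.9 CPM. All 6 dividing sums were above their counterparts.

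**Figure D4:**
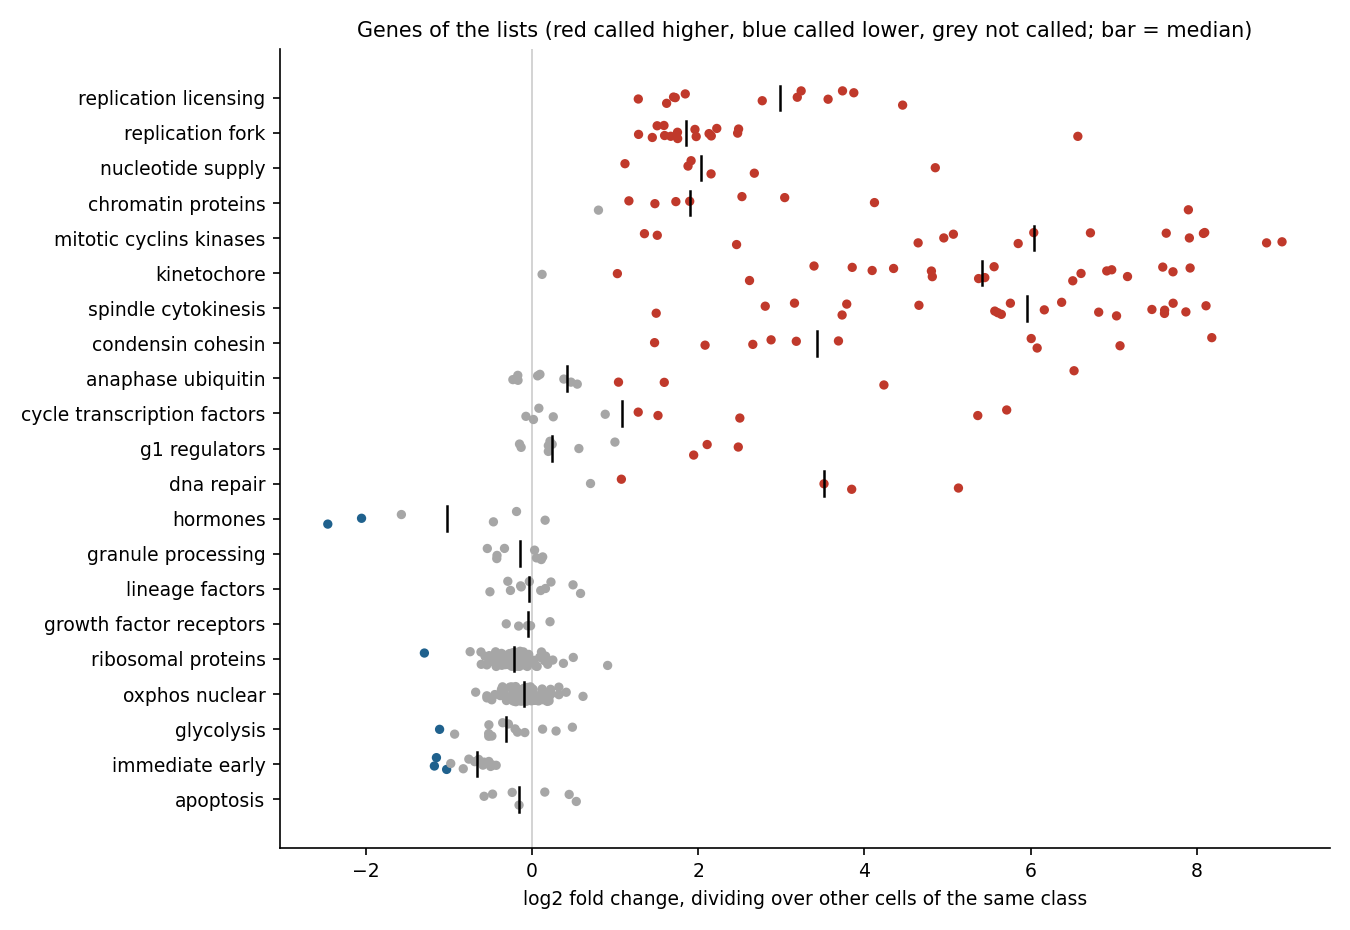
Log2 fold change of each tested gene in dividing over other cells, grouped by list; red genes were called higher, blue lower and grey not called, and bars are medians. The mitotic kinase, kinetochore and spindle lists lie furthest to the right, with medians of 5.41 to 6.04. Medians of the ribosomal, respiratory and lineage lists were -0.22, -0.09 and -0.03.

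Hormone genes were lower in dividing cells by their median, and no lineage factor was called. Of 6 tested hormone genes 0 rose and 2 fell, Lhb (-2.45) and Pomc (-2.05), with a list median of -1.01, against -0.10 for all genes. Neither is a product of the tested classes. Lhb had 12.7 and 5.32 CPM in dividing folliculostellate-like cells, against 219 and 56.9 CPM. Pomc had 79.8 and 1251 CPM in dividing lactotroph-like cells, against 906 and 1362 CPM, so that whole glands hardly differed. Pomc lost its call without the anterior library (-1.07), the posterior library (-1.5) or lane 1 (-1.25), and without cells of high doublet score (-0.52). Among 8 tested genes of granules and prohormone processing 0 were called by edgeR, with 3 at an unadjusted p under 0.05 and 0 by DESeq2. The same held for 11 lineage factors, with 1 at an unadjusted p under 0.05 and 0 by DESeq2.

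Prl in lactotroph-like cells was 366139 and 384097 CPM in dividing cells of dissected and whole glands, against 472788 and 495381 CPM in other cells. Both dividing sums were lower, with a log2 fold change of -0.77 in that class that did not pass. Fold changes carry a scaling factor of each sum (TMM), which CPM do not. In lactotroph-like cells the factors were 0.815 and 0.773 in dividing sums of dissected and whole glands, against 0.612 and 0.588 in other cells. CPM pairs of this class therefore show smaller falls and larger rises than its fold changes. Pou1f1, the transcription factor of Prl and Gh1 cells, was 641 and 638 CPM in dividing lactotroph-like cells, against 361 and 439 CPM. Its change of 0.11 over the 3 classes did not pass and turned sign under 6 of the alternatives given in the closing section. Sox2, of stem cells, was 253 and 346 CPM in dividing folliculostellate-like cells, against 310 and 329 CPM, and did not pass (-0.26 over the 3 classes). Gal, galanin, a peptide that estrogen induces in lactotrophs, rose by 1.11 (SE 0.27, adjusted p = 0.019). It had 2284 and 2467 CPM in dividing lactotroph-like cells, against 552 and 1122 CPM. The call was lost in the fit of 5 classes described below (0.47), at 10% mitochondrial UMIs (0.48), over both lobes (0.64), with comparison cells matched on UMI total (0.68), without the anterior library (1.34) and without lane 1 (0.94) or lane 2 (0.99). The other tested gene of the estrogen list, Pgr, did not pass.

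Immediate early genes were lower in dividing cells. Of 14 tested, 3 fell (Ier2, Fosl2 and Junb), against the background of 1.04%, and 13 had an unadjusted p under 0.05. All 14 had a negative log2 fold change, with a median of -0.66. Fos, Fosb, Jun, Jund, Atf3, Btg2 and Dusp1 had adjusted p under 0.05 at changes under 2-fold. Ier2 had 147 and 53.3 CPM in dividing lactotroph-like cells, against 286 and 251 CPM, and 1384 and 1351 CPM in dividing folliculostellate-like cells, against 2115 and 2199.98 CPM. In clusters 15 and 17 it had 874 and 1033 CPM, against 1737 and 1207 CPM. Ier2 fell by 1.17 (SE 0.22, adjusted p = 0.0039). These genes respond to tissue dissociation, and median depth was higher in dividing cells of each class; the part of either in this result was not tested. Matching of comparison cells on UMI total was incomplete. It gave 549742 UMIs in 15 dividing folliculostellate-like cells of dissected glands, against 3876237 UMIs in 150 other cells, which is fewer per cell, and levelled only lactotroph-like cells. The call of Ier2 was lost without the anterior library (-1.24), with comparison cells from the same sub-cluster (-0.95) and with classes set by marker gates (-0.78).

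Few genes of housekeeping groups were called, but the medians of ribosomal and glycolysis genes lay below that of all genes (-0.10). Of 88 tested genes whose symbols begin with Rpl or Rps, 1 fell (Rps6kl1, a kinase and no ribosomal protein), with a median of -0.22 and 34 at an unadjusted p under 0.05. Of 84 genes of oxidative phosphorylation 0 were called by edgeR, with 12 at an unadjusted p under 0.05 and 0 by DESeq2 (median -0.09). Of 14 glycolysis genes, with a median of -0.32 and 7 at an unadjusted p under 0.05, 1 fell, Aldoc (-1.11). Aldoc was not called with hormone genes left out of library sizes. Neither Rps6kl1 nor Aldoc was called by DESeq2. Of 2 tested hormone receptors 0 were called by either tool, with 1 at an unadjusted p under 0.05. Of 5 growth factor receptors and 7 apoptosis genes 0 were called by either tool, with 0 and 2 at an unadjusted p under 0.05.

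Beyond the lists, the genes that fell furthest with the same direction in every class and preparation were Wfdc1 (-1.55), 2 structural RNAs (RF01518, -1.44, and RF00002, -1.38) and Gas6 (-1.34). Gas6 encodes the ligand of the Axl and Mertk receptors, and was named for its rise in growth-arrested cells. It had 4.2 and 5.93 CPM in dividing lactotroph-like cells, against 33.7 and 20.7 CPM, and 45.5 and 66.6 CPM in dividing folliculostellate-like cells, against 105 and 91.1 CPM. In clusters 15 and 17 it had 143 and 170 CPM, against 270 and 297 CPM. Its SE was 0.24 and its adjusted p 0.0024, and the call was lost without the anterior library (-1.10). Both structural RNAs lost their calls when comparison cells were matched, as far as possible, on UMI total. Wfdc1 was called in clusters 15 and 17 but in neither other class taken alone, at 45.2 and 31.0 CPM in dividing cells, against 255 and 52.0 CPM. It lost its call without the anterior library (-1.15), the posterior library (-1.2) or lane 1 (-0.95), and with comparison cells from the same sub-cluster (-0.71). In that group the states differed in makeup. Cluster 15 held 85% of dividing cells, against 56.8% of other cells, and the posterior library gave 3 of the 8 dividing cells of dissected glands, against most of the other cells. Ramp3 was itself a leading gene of cluster 17. Ctsh, a cathepsin, Igfbp4, an IGF binding protein, Sept4, Ramp3 and LOC108348061 fell by 1.08 to 1.22.

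**Figure D5:**
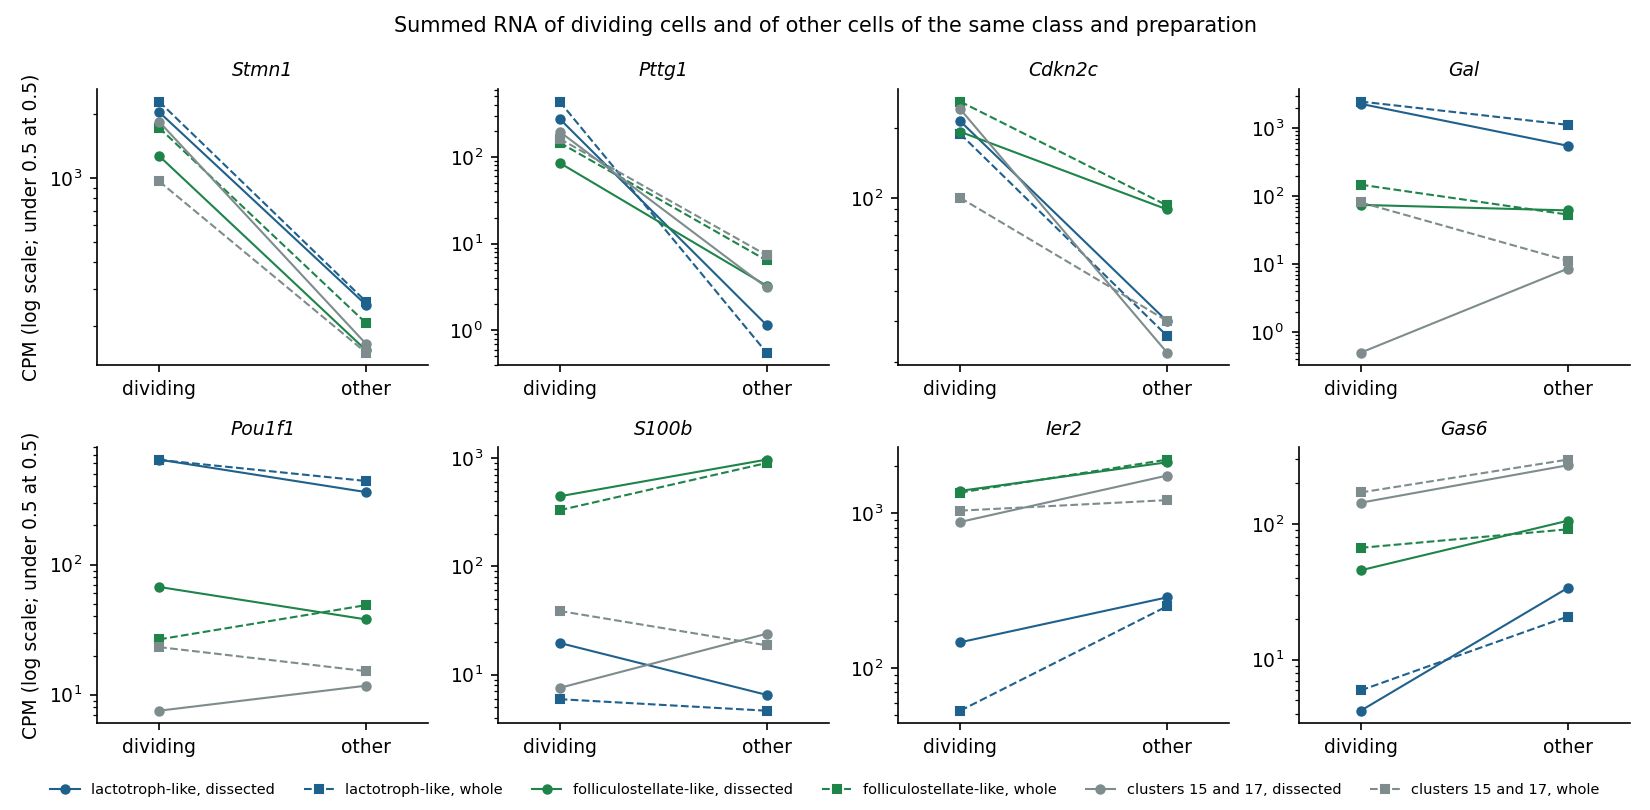
CPM (log scale) of 8 genes in summed dividing cells and in other cells of the same class and preparation; each line joins the 2 sums of 1 class and preparation. Stmn1, Pttg1 and Cdkn2c were higher in dividing cells on all 6 lines, and Ier2 and Gas6 lower on all 6.

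Each class was then given its own term for dividing cells in a second fit of the same sums. That fit had fewer residual degrees of freedom than the first. Within a class its only replication was the 2 pools of glands. The difference between classes given below came from a fit of the same form. In lactotroph-like cells 717 genes (7.51%) rose and 515 (5.39%) fell. In folliculostellate-like cells 287 (3.01%) rose and 138 (1.45%) fell, and in clusters 15 and 17, 118 (1.24%) rose and 26 (0.272%) fell. The classes differ in the number of dividing cells and in the level of these genes among other cells, so the counts are not measures of response. Of the 14 immediate early genes, 8 fell in lactotroph-like cells (median -1.08), 0 in folliculostellate-like cells (-0.37) and 1, Nr4a1, in clusters 15 and 17 (-0.69). Medians of all genes in these classes were -0.15, 0.00 and -0.14. In lactotroph-like cells the inhibitors Cdkn1a (p21, 2.06) and Cdkn1c (p57, 1.11) rose too, and Myc fell by 1.5. Cdkn1a also rose in folliculostellate-like cells (1.36), at 43.7 and 45.3 CPM in dividing cells, against 16.6 and 13.9 CPM in other cells.

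Dividing folliculostellate-like cells had lower S100b (-1.49), at 444 and 330 CPM, against 968 and 900 CPM in other cells of the class. They had higher Cga, the common subunit of glycoprotein hormones (1.31), at 2610.3 and 1849 CPM, against 819 and 732 CPM. Gata2, a factor of gonadotrophs and thyrotrophs, rose (2.45) at 21.8 and 7.99 CPM, against 1.75 and 2.45 CPM, as did Tshb (1.29), which was 12.7 CPM against 14.3 CPM in dissected glands and 218 CPM against 58.5 CPM in whole glands. Of the 6 tested hormone genes 2 rose and 2 fell in this class. Lhb, a marker of gonadotrophs, fell (-4.06), at 5.32 CPM against 56.9 CPM in whole glands. Gh1 fell (-3.31), at 1069.6 and 1021 CPM, against 7240.1 and 11302 CPM. The dividing cells were mostly of cluster 11 and the other cells mostly of cluster 4, and their median depths were 20393.5 and 6259 UMIs. Summed markers of other cells moved as well. The 5 endothelial markers in the table summed to 180 and 2.66 CPM in dividing cells of dissected and whole glands, against 5.03 and 7.74 CPM, and the 4 mural markers to 166 and 7.99 CPM, against 10.2 and 8.40 CPM. The 6 folliculostellate markers summed to 1546 and 1239 CPM, against 2235 and 2086 CPM, with none at 0. The part of cluster, depth and other cells' RNA in these changes was not tested.

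In clusters 15 and 17 the summed erythroid markers were 16583 and 11561 CPM in dividing cells, against 10059 and 13979.5 CPM, and macrophage markers were 738 and 3.87 CPM, against 238 and 192 CPM. Their endothelial markers summed to 5791 and 7676.5 CPM, against 8014 and 8333 CPM. Kdr was 881 and 1014 CPM in dividing cells, against 1190.2 and 1426 CPM, and was not tested because of the filter on low counts.

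Folliculostellate-like and lactotroph-like cells were set against each other by the difference between their log2 fold changes. It was higher in folliculostellate-like cells for 185 of 9550 genes (1.94%) and lower for 338 (3.54%). Cell cycle genes were prominent among the lower ones, with 11 of 12 licensing genes (median difference -2.14) and 13 of 20 kinetochore genes (-2.31). Of the 8 rule genes that chose the cells 7 were lower as well, with a median of -1.97. The lists accompany the rule genes, so these tallies are descriptions of the chosen cells. The rule asks for 1 UMI per gene at any depth, and the part of depth was not tested. The median of all genes was 0.10, or -0.01 with hormone genes left out of library sizes. Among other cells, licensing genes such as Mcm6 stood at 7.02 and 12.2 CPM in folliculostellate-like and at 5.87 and 4.75 CPM in lactotroph-like cells. The difference was lower for Pttg1 (-4.03) and Cdkn2c (-1.35) and higher for Cga (2.06), Myc (2.04) and Ier2 (1.12), the last not called under 2 other scalings. It was higher for Cldn4, a tight junction claudin (5.37), which had 160 and 79.9 CPM in dividing folliculostellate-like cells, against 34.97 and 25.4 CPM in other cells. In lactotroph-like cells Cldn4 had 2.80 and 0 CPM in dividing cells, against 8.20 and 9.84 CPM. With comparison cells drawn from the same sub-cluster 49 genes were higher and 166 lower. Without lane 2 there were 28 higher and 115 lower, and without the posterior library 517 lower.

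A fit chosen after seeing the data added somatotroph-like and macrophage-like cells, which had at least 5 dividing cells in both preparations when both lobes were summed. Over the 5 classes 382 of 8906 genes (4.29%) rose and 176 (1.98%) fell. Taken alone, 517 (5.81%) rose and 382 (4.29%) fell in somatotroph-like cells, and 204 (2.29%) rose and 374 (4.2%) fell in macrophage-like cells. In somatotroph-like cells Gh1 was 273391 and 253126 CPM in dividing cells, against 319025 and 329331 CPM in other cells, and did not pass (-0.58, SE 0.55). Pttg1 rose there by 8.33 (606 and 1011 CPM, against 1.28 and 2.86 CPM) and Cdkn2c by 3.31 (315 and 275 CPM, against 23.5 and 24.7 CPM). Cyclin D2 (Ccnd2) fell by 1.32 in somatotroph-like and by 2.47 in macrophage-like cells. In macrophage-like cells Prl, Gh1 and Pomc, which these cells do not make, fell by 3.04, 3.13 and 3.85, at median depths of 9268 UMIs in dividing and 5412 UMIs in other cells. Tyrobp, their own marker, was 2475 and 2325 CPM, against 2937 and 3030 CPM. Its change of -0.98 was under 2-fold (adjusted p = 0.011 by edgeR's quasi-likelihood test). The median log2 fold change of all genes was -0.57 in macrophage-like and -0.24 in somatotroph-like cells, against which the changes named here should be read.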

How the data were processed

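Deposited values were UMI counts per gene and cell barcode in 1 matrix of 4 libraries, made by the authors with Cell Ranger 3.1, per the submitters' processing notes. Each barcode's library was read from its suffix, per the labels. The genome build, the annotation and any equalization of reads are not given in the sources used here. The members, gene lists and tests were chosen with earlier results of these data known.

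Cells below the dividing rule with a Scrublet score of at most 0.25 were clustered without cell cycle genes (scanpy 1.11.5: 2000 variable genes, 30 principal components, 15 neighbors; Leiden resolution 1.0, leidenalg 0.10.2). Clusters were named from marker lists by a score and median-depth rule set after the clusters were seen. Clusters 15 and 17 are given by number, and clusters 23 and 24 stayed unnamed. Every cell took the class whose mean correlated best over 1000 genes, hormone and cell cycle genes left out.

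UMIs were summed per class, preparation and state and fitted with edgeR 4.0.16 (R 4.3.3, limma 3.58.1), TMM scaling, filterByExpr and a block for each class and preparation. CPM values are scaled to the plain library total, without the TMM factors that the fold changes carry. Benjamini-Hochberg adjustment ran over all tested genes, rule genes included. The test was checked on simulated data. Hormone classes of the anterior lobe and folliculostellate-like cells of dissected glands came from the anterior library, and other classes from both lobes. The planned difference between folliculostellate-like and hormone classes needed somatotroph-like cells, which had 6 dividing cells in the anterior library, under the minimum of 8, so lactotroph-like cells alone were used.

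Named genes were the 10 largest called changes in each direction (at least 50 CPM, 1 direction in every class and preparation), the 3 most abundant members of each list, a fixed set, and the 5 largest differences between classes in each direction. Others were named after their values were seen. One named gene is not reported here. Alternatives were DESeq2 1.42.0 and its size factors, no low-count filter, other rule thresholds, depth matching and thinning, doublet and mitochondrial limits, other class rules, scalings and blocks, and leaving out each library. Chosen after seeing the data were the 5-class fit, leaving out the largest dividing cell of each sum, comparison cells from the same sub-cluster, and the lactotroph-like contrast. Intervals are exact (Clopper-Pearson, scipy 1.17.1), and the limit for a count of 0 is 3 counts.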

Additional observations from a re-analysis of the deposited data

Results flagged for a closer look

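The change between dividing and other cells differed between folliculostellate-like and lactotroph-like cells most for 10 genes, by edgeR's quasi-likelihood test of the difference itself (log2, folliculostellate-like minus lactotroph-like). It was higher for Cldn4 (5.37, adjusted p = 9.24e-05), Srgap1 (4.02, adjusted p = 0.0201), Slc45a4 (3.87, adjusted p = 0.0261), Arid3a (3.75, adjusted p = 0.0187) and Samd5 (3.59, adjusted p = 0.0443). It was lower for Spag5 (-5.48, adjusted p = 1.6e-06), Arhgap19 (-4.87, adjusted p = 6.31e-05), Col13a1 (-4.76, adjusted p = 0.0103), Mns1 (-4.49, adjusted p = 9.51e-06) and Bub1 (-4.38, adjusted p = 9.51e-06).

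Bub1, a kinase of the spindle checkpoint, had 38.2 and 43.9 CPM in dividing folliculostellate-like cells of dissected and whole glands, against 1.99 and 2.25 CPM in other cells. It had 93.8 and 94.1 CPM in dividing lactotroph-like cells, against 0.247 and 0.163 CPM. Spag5, a spindle protein, had 16.4 and 21.3 CPM in dividing folliculostellate-like cells, against 8.19 and 8.07 CPM, and 34.99 and 37.8 CPM in dividing lactotroph-like cells, against 0.219 and 0.342 CPM. Dividing cells had more of both genes in both classes, and other folliculostellate-like cells had more than other lactotroph-like cells. Bub1, Col13a1 and Samd5 lost the call with comparison cells from the same sub-cluster, Srgap1 without lane 1 or without lane 2, and Slc45a4 without lane 1. Col13a1 also lost it without lane 2, and both Col13a1 and Samd5 without cells of high doublet score.

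Outside the kept barcodes, 16 had 4 or more of the 8 rule genes but failed a filter. Of these, 15 had more than 20% mitochondrial UMIs, and the 16 had a median of 34.7% mitochondrial UMIs and 4112 UMIs.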

How the results depend on the processing

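Among results that answer a comparison, 157 values under alternatives stayed within the exact 95% interval of a share or within 1.5 times a count of genes, and 31 did not. Among single genes 1153 kept direction and side of the threshold, 81 lost the call, 17 gained it and 7 changed sign. Of the 50 named called genes, 34 kept their call under every alternative that tested them. Thinning gave dividing shares of 0.786% (anterior), 0.852% (lactotroph-like, dissected) and 6.15% (macrophage-like, whole). A limit of 10% mitochondrial UMIs gave 0.946% (posterior), 3.31% (folliculostellate-like, dissected) and 2.52% (folliculostellate-like, whole), while lactotroph-like cells had 1.25% and 1.54%.

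Called genes numbered 959 without the low-count filter, 768 at 10% mitochondrial UMIs, 726 with at least 15 dividing cells per sum and 240 to 726 leaving out each library. Genes that rose ranged from 220 to 553 over the libraries left out. Genes that fell numbered 428 without the filter, 158 without high doublet scores, 56 with depth matched as far as possible, 166 over both lobes, 253 at 10% mitochondrial UMIs, 173 with at least 15 cells, 176 with 5 classes, 169 without the largest cells, 43 with the same sub-cluster and 20 to 173 leaving out each library. DESeq2 called 362 higher and 76 lower.

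The difference between classes held for 143 to 744 genes leaving out each library (28 to 227 higher, 115 to 517 lower) and for 215 with the same sub-cluster (49 higher, 166 lower), with 331 higher without the filter. It could not be fitted without the anterior library. Prl ranged from -0.65 to 0.11 over the libraries left out and changed sign without the anterior one. Pou1f1 did so without the filter (-0.062), with matched depth (-0.13), at 10% mitochondrial UMIs (-0.31), without the anterior library (-0.23, of a range to 0.26 over the libraries left out), with 5 classes (-0.026) and without the largest cells (-0.00197). The cause of these moves was not tested, except that fewer cells or samples entered the fits that left some out. No paired analysis was possible because the replicate numbers name lanes and lobes of 2 pools and pair no animals; each class and preparation was already a block.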
